A study of Mus musculus with 56 samples.

Results

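In all, 9 genes of the postsynaptic side of the synapse were followed in ribosome-bound and unbound RNA of newborn mouse barrel cortex. They are Shank1, Shank2, Shank3, Dlg4, Dlgap1, Homer1, Camk2a, Nlgn1 and Gphn, selected by gene name from the 43902 genes present in all 3 count tables, and all 9 passed the filter on low counts in every comparison. For the 3 Shank genes every bound library of a line lay above every unbound one, and the fitted fold changes ran from 1.99 to 5.57. For Gphn every bound library lay below every unbound one. The fitted values of the other 5 genes differed by less than 1.5-fold between the fractions of a line. After whisker deprivation, Shank1, Shank2, Shank3, Dlg4 and Homer1 were lower and Camk2a was higher in bound RNA of the heterozygous microglial line. That result came from 4 libraries against 4, taken from 4 mice, and depended on how the libraries were assigned to sides. No member passed the main test (edgeR) in either fraction of the astrocyte line or of the homozygous microglial line.

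The postsynaptic density is a protein meshwork under the membrane of excitatory synapses. In textbook terms it is built in layers. Dlg4 (PSD-95) binds glutamate receptors and adhesion molecules at the membrane, Dlgap1 (GKAP) links Dlg4 to the Shank proteins, and Shank proteins bind Homer1, which reaches metabotropic glutamate receptors and the actin cytoskeleton. Camk2a encodes the alpha subunit of calcium/calmodulin-dependent kinase II, an abundant kinase of forebrain excitatory synapses whose mRNA is carried into dendrites. Nlgn1 (neuroligin 1) is an adhesion molecule of excitatory synapses that binds presynaptic neurexins. Gphn (gephyrin) is the scaffold of inhibitory synapses, where it holds glycine and GABA receptors. Apart from Gphn, which is not particular to neurons, these genes are known mainly from neurons. The tagged ribosomes here were those of astrocytes or microglia.

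RNA came from mice at postnatal day 5 whose right whiskers had been cauterised on day 4, so that the left cortex was deprived and the right served as control. In the astrocyte line, Aldh1l1::eGFPL10a, ribosomal protein L10a carried EGFP under Aldh1l1 regulatory sequence and no tamoxifen was given. Both microglial lines carried Eef1a1LSL.eGFPL10a/+, a reporter that Cre switches on, and received 50 µg tamoxifen on days 1 to 3. The heterozygous line was Cx3cr1CreErt2/+(Litt). The homozygous line was Cx3cr1CreErt2/CreErt2(Litt), with the insertion in both copies of the microglial receptor gene Cx3cr1, in deprived and control pieces alike. EGFP-tagged ribosomes were pulled down (translating ribosome affinity purification), and both the bound RNA and the unbound remainder were sequenced in deprived and control cortex. The 12 groups hold 5 libraries each in the astrocyte and homozygous lines and 4 each in the heterozygous line, 56 libraries in all. The labels name the animal for microglial pieces and not for astrocyte pieces, so p-values measure the spread between libraries. In the heterozygous line the titles place pieces 14L, 15L, 17L and 17R in the deprived group and 14R, 15R, 21L and 21R in the control group. Mice 17 and 21 therefore each contribute both sides to 1 group, against the side letters.

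Library totals ran from 10081228 to 56689296 counts, with the astrocyte libraries the shallowest (none above 28584281), and the 9 genes together took 0.160% to 0.565% of a library. The lowest count of any member in any library was 388, for Gphn in bound RNA of the astrocyte line. The labelled cell types were checked against marker lists. All 12 astrocyte markers were higher in bound RNA of the astrocyte line, and all 13 microglia markers in bound RNA of each microglial line. Markers of neurons were present in bound RNA too. Their 16 genes summed to 5660 to 6780, 5540 to 7163 and 5752 to 6955 CPM (counts scaled to a common library total, with TMM factors) in bound RNA of the astrocyte, heterozygous and homozygous lines, and none was at 0 in any line. In unbound RNA the same sums were 9045 to 10130, 8629 to 10840 and 8489 to 10340 CPM. The 13 microglia markers summed to 188 to 411 and 102 to 371 CPM in bound RNA of the heterozygous and homozygous lines. The part of neuronal RNA in the bound values below was not tested. In such bulk samples, fewer cells of a type and less RNA per cell cannot be told apart.

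In GENCODE vM21 on GRCm38 the members other than Camk2a are Shank1 on chromosome 7 (44310253 to 44360572), Shank2 on chromosome 7 (144001928 to 144424494), Shank3 on chromosome 15 (89499623 to 89560261), Dlg4 on chromosome 11 (70016942 to 70047522), Dlgap1 on chromosome 17 (69969073 to 70821413), Homer1 on chromosome 13 (93299635 to 93405129), Nlgn1 on chromosome 3 (25426215 to 26332460) and Gphn on chromosome 12 (78226379 to 78684772). Their longest annotated transcripts run from 3570 bases for Gphn and 4970 for Camk2a to 11807 for Nlgn1, and the merged exons used for levels per kilobase from 3.75 kb for Gphn to 17.89 kb for Dlgap1. They differ widely in base composition. The longest transcripts of Shank3 and Shank1 hold 62.4% and 61.4% G and C, above 98.8% and 98.2% of the genes tested in the heterozygous line. Those of Homer1 and Nlgn1 hold 36.9% and 38.9%, above 2.48% and 5.79%. A gene on the opposite strand overlaps exons of Nlgn1 (9.16% of its exon bases), Gphn (3.92%), Shank1 (3.22%), Shank3 (2.95%) and Dlgap1 (0.51%), and the strand used in counting is not given in the sources used here, so these counts are uncertain to that extent.

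Of the members, Camk2a was not looked up, and 6 others had an entry in RefSeq's promoter set (GRCm38.p6), and 2 windows of 250 bases upstream of a transcription start are printed, chosen after their content was seen: Shank3 as the most GC-rich (82.4% G and C) and Homer1 for its motif content (62.4%). These windows lie at the 99.4 and 77.5 percentiles of GC content among all promoter windows, so the printed Homer1 window is not low in G and C as its transcript is. Homer1 is known as an activity-regulated gene, and the windows were searched on both strands for TGACG, the core of the cAMP response element, which is printed in capitals. Both genes lie on the plus strand and the sequences run 5′ to 3′.
Shank3 promoter, chr15:89499358-89499607: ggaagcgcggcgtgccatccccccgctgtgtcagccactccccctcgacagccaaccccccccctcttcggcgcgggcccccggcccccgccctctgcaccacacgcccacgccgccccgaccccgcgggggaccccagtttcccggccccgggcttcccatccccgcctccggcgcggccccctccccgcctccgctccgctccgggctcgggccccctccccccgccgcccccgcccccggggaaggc
Homer1 promoter, chr13:93303507-93303756: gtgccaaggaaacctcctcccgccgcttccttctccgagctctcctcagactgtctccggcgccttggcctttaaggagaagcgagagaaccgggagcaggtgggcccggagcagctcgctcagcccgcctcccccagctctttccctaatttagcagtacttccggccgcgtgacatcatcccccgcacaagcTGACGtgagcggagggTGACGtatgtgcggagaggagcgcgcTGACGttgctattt
The Homer1 window holds 3 matches, starting 56, 40 and 14 bases before the start, and the Shank3 window holds none. A second Homer1 start, not printed, has a window of 46.8% G and C, at the 29.8 percentile, with no match. Of the 11 windows of the 6 genes, 1 other, at a Dlg4 start, holds a match. Of 32851 promoter windows of this length, 17.8% hold at least 1 match. The full palindrome TGACGTCA, of which TGACG is a part, is in neither window and in 1.55% of all windows. A match of letters is a description of the sequence and no measure of binding.

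Levels were compared between genes as CPM per kilobase of merged exons. In bound RNA the order began the same way in all 3 lines: Shank2, then Shank1, then Camk2a. Shank2 stood at 112 ± 15.9, 169 ± 32.3 and 139 ± 33.5 CPM per kb (SD, n = 10, 8 and 10) in the astrocyte, heterozygous and homozygous lines, and its range overlapped that of Shank1. Camk2a, at 47.9 ± 6.42, 45.0 ± 10.3 and 45.9 ± 8.39 CPM per kb, lay below both Shank genes and above the remaining 6 members without overlap. Those 6 had means of 8.26 to 19.1 CPM per kb, mostly with overlapping ranges; only Nlgn1 in the microglial lines lay below its neighbour Gphn without overlap. In unbound RNA, Camk2a, Shank1 and Shank2 again led, with Shank1 at 53.0 ± 5.10, 39.9 ± 5.40 and 39.8 ± 2.62 CPM per kb, and the ranges of Camk2a and Shank1 overlapped in every line. Shank3 was the lowest member in unbound RNA of every line, at 5.35 ± 0.522, 4.06 ± 0.382 and 4.04 ± 0.324 CPM per kb. The plot of levels in every library shows each member on its own CPM scale.

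**Figure D1:**
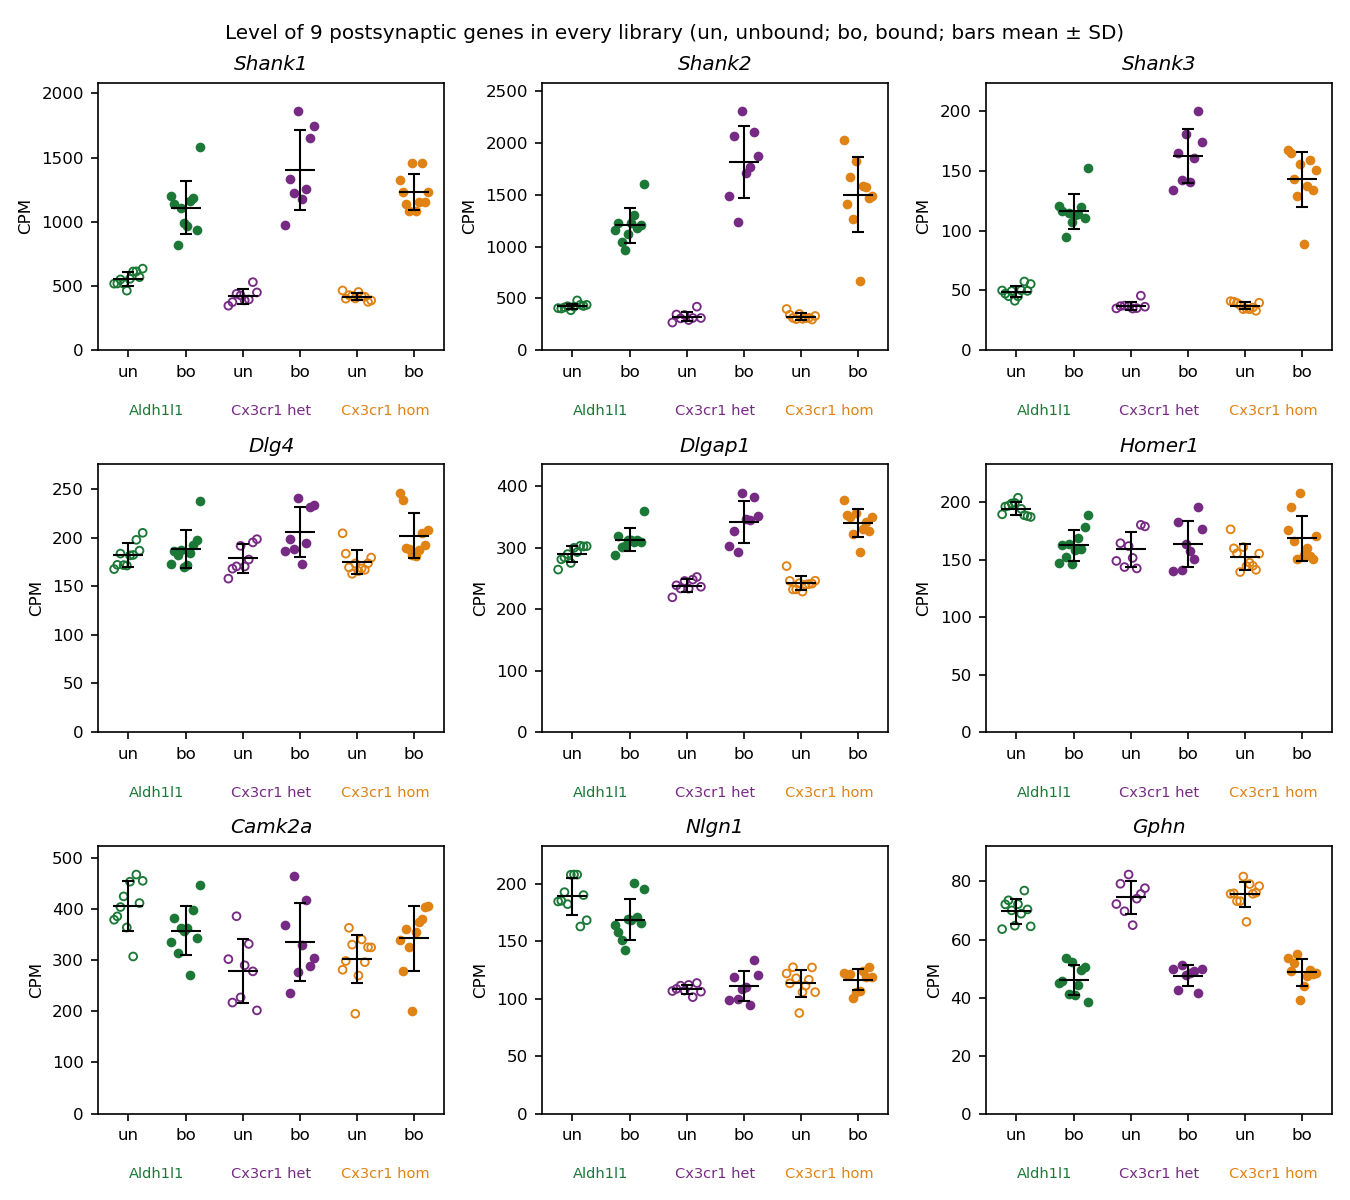
Level of each of the 9 genes (CPM, linear axis from 0) in every library, open circles for unbound and filled circles for bound RNA, in the astrocyte (Aldh1l1), heterozygous (Cx3cr1 het) and homozygous (Cx3cr1 hom) lines, with bars at the mean ± SD (n = 10, 8 and 10 per fraction). The Shank genes separate by fraction in every line, Gphn separates the other way, and the other genes overlap in part or in full between fractions in at least 1 line.

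The first comparison asks which members were more or less abundant on the tagged ribosomes than in the unbound RNA. The 3 Shank genes, the master scaffolds of the density, were the members with the highest bound over unbound ratio. Shank2 ranged from 268 to 421 CPM with a median of 311 in unbound RNA of the heterozygous line, and from 1233 to 2305 CPM with a median of 1821 in bound RNA. No bound library came near an unbound one. Ratios were taken within a piece in the microglial lines. In the astrocyte line they were taken between libraries of the same condition and number, which the labels do not say share a piece. The Shank2 ratio was 5.61 ± 0.814 (SD, n = 8, 4.01 to 6.78) there, 4.58 ± 0.928 (n = 10, 2.22 to 5.34) in the homozygous line and 2.84 ± 0.364 (n = 10, 2.28 to 3.66) in the astrocyte line. The lowest homozygous ratio is that of piece 18R. The fitted log2 fold changes of bound against unbound RNA were 1.51 ± 0.06, edgeR adjusted p = 4.4e-17, in the astrocyte line, 2.48 ± 0.08, adjusted p = 4e-16, in the heterozygous line and 2.19 ± 0.11, adjusted p = 7.5e-14, in the homozygous line (edgeR quasi-likelihood test).

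Shank3, whose loss causes Phelan-McDermid syndrome in humans, ranged from 34.9 to 45.6 CPM with a median of 36.6 in unbound and from 134 to 199.8 CPM with a median of 163 in bound RNA of the heterozygous line. Its log2 fold changes were 1.24 ± 0.06, 2.11 ± 0.06 and 1.94 ± 0.09 in the astrocyte, heterozygous and homozygous lines (edgeR adjusted p = 6.7e-16, 3.2e-17 and 6e-15). Shank1 followed with 0.99 ± 0.08, 1.72 ± 0.08 and 1.56 ± 0.06 (adjusted p = 1.3e-11, 1.7e-13 and 2.2e-15). In the astrocyte line, bound Shank1 ranged from 819 to 1582 CPM with a median of 1121 and unbound Shank1 from 465 to 636 CPM with a median of 554, and the fractions did not overlap. Among the 19275 genes tested in the heterozygous line, Shank2, Shank3 and Shank1 ranked 267, 391 and 581 from the highest fold change.

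Dlgap1, Dlg4 and Homer1 did not share this size of difference. Dlgap1, which joins Shank to Dlg4, had a ratio above 1 in every microglial piece and every astrocyte library pair, with mean ratios of 1.08 ± 0.0552, 1.43 ± 0.104 and 1.40 ± 0.0617 (SD) in the astrocyte, heterozygous and homozygous lines. It passed the test in all 3 (log2 0.11 ± 0.04, 0.52 ± 0.05 and 0.49 ± 0.05; edgeR adjusted p = 0.0139, 1.2e-08 and 1.9e-09). In the astrocyte line this call was lost without the filter on low counts (log2 0.07, adjusted p = 0.322). Dlg4 passed in the microglial lines (0.20 ± 0.05 and 0.21 ± 0.06; adjusted p = 0.00144 and 0.0048) and not in the astrocyte line (0.05 ± 0.05, adjusted p = 0.449). Homer1 was lower in bound RNA of the astrocyte line (-0.26 ± 0.04, adjusted p = 7.6e-06). It was 0.04 ± 0.04 (adjusted p = 0.456) in the heterozygous line and passed in the homozygous line (0.14 ± 0.06, adjusted p = 0.0454), a call lost in 10 of 20 fits that left out 1 library and with DESeq2 (adjusted p = 0.0522).

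Camk2a, the kinase, was lower in bound RNA of the astrocyte line (-0.18 ± 0.06, edgeR adjusted p = 0.00762), with a ratio below 1 in all 10 library pairs as numbered. It was higher in the heterozygous line (0.27 ± 0.08, adjusted p = 0.00731), with a ratio above 1 in all 8, and did not pass in the homozygous line (0.18 ± 0.11, adjusted p = 0.17). Nlgn1, the adhesion molecule, passed in the astrocyte line alone, where it was lower (-0.16 ± 0.06, adjusted p = 0.0136); its values in the microglial lines were 0.03 ± 0.05 and 0.04 ± 0.06. Gphn, the inhibitory scaffold, with the shortest transcript of the 9, was lower in every bound library than in any unbound library of the same line. It ranged from 64.9 to 82.4 CPM with a median of 74.9 in unbound and from 41.5 to 51.3 CPM with a median of 48.7 in bound RNA of the heterozygous line. Its log2 fold changes were -0.60 ± 0.05, -0.65 ± 0.05 and -0.63 ± 0.05 (adjusted p = 5.7e-11, 1.2e-10 and 4.8e-10).

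**Figure D2:**
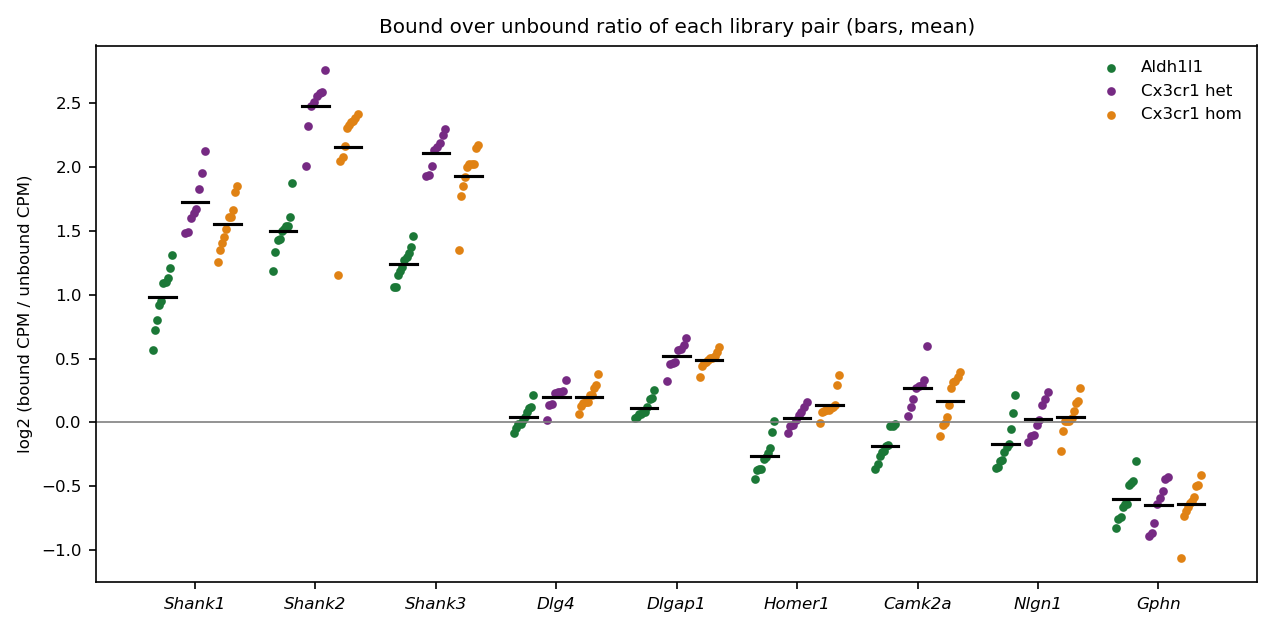
Bound over unbound CPM (log2, vertical axis) for the 9 genes, with points for cortical pieces of the heterozygous (n = 8) and homozygous (n = 10) lines and for same-numbered libraries of the astrocyte line (Aldh1l1, n = 10), and bars at their means. All Shank points lie above 0 and all Gphn points below it, and the homozygous piece 18R is the lowest Shank2 point at a ratio of 2.22.

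Levels by fraction were as follows, each as the mean ± SD in unbound and then bound RNA (n = 10, 8 and 10 libraries per fraction in the 3 lines). Shank1 had 557 ± 53.6 and 1109.9 ± 208 CPM in the astrocyte line, 419.6 ± 56.7 and 1404 ± 312 CPM in the heterozygous line, and 418 ± 27.6 and 1232 ± 140.2 CPM in the homozygous line. Shank3 had 49.1 ± 4.80 and 116 ± 14.6 CPM in the astrocyte line, 37.3 ± 3.51 and 162 ± 22.6 CPM in the heterozygous line, and 37.1 ± 2.98 and 143 ± 23.0 CPM in the homozygous line. For both genes the fractions were separate in every line. Dlg4, at the membrane face of the density, had 182 ± 12.2 and 188 ± 19.7 CPM in the astrocyte line, 179 ± 14.7 and 206 ± 25.8 CPM in the heterozygous line, and 175 ± 12.3 and 202 ± 23.2 CPM in the homozygous line. Dlgap1, one layer below, had 289 ± 13.2 and 313 ± 18.7 CPM in the astrocyte line, 238 ± 10.4 and 342 ± 34.2 CPM in the heterozygous line, and 242 ± 11.6 and 340.0 ± 23.3 CPM in the homozygous line. Homer1 had 194 ± 5.74 and 163 ± 13.4 CPM in the astrocyte line, 159 ± 14.9 and 164 ± 20.2 CPM in the heterozygous line, and 153 ± 11.4 and 169 ± 19.9 CPM in the homozygous line. Nlgn1 had 189 ± 15.9 and 169 ± 17.9 CPM in the astrocyte line, 108 ± 3.94 and 111 ± 13.1 CPM in the heterozygous line, and 113 ± 11.9 and 117 ± 9.06 CPM in the homozygous line. Both stood higher in the astrocyte than in the microglial tables in unbound RNA, a comparison across tables that was not tested. Camk2a had 405 ± 48.9 and 357 ± 47.9 CPM in the astrocyte line, 279 ± 62.5 and 336 ± 76.5 CPM in the heterozygous line, and 303 ± 47.1 and 342 ± 62.6 CPM in the homozygous line. Gphn had 69.7 ± 4.32 and 46.2 ± 5.14 CPM in the astrocyte line, 74.5 ± 5.55 and 47.6 ± 3.54 CPM in the heterozygous line, and 75.5 ± 4.21 and 48.7 ± 4.61 CPM in the homozygous line.

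In counts, 8 of 9 members passed in the astrocyte line (4 higher and 4 lower), and 7 of 9 in each microglial line (6 higher and 1 lower). The background was high: 59.1%, 62.6% and 61.9% of all genes tested passed in these 3 comparisons (edgeR, adjusted over all genes), so a call as such is common among genes. By direction, 31.5% were higher and 27.6% lower in the astrocyte line, 31.8% and 30.8% in the heterozygous line, and 31.6% and 30.4% in the homozygous line. The members' median log2 fold changes were 0.05, 0.27 and 0.21, beside 0.03, -0.01 and -0.01 over all genes.

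Base composition and length moved with these ratios. Across the genes tested, the bound over unbound fold change had a Spearman correlation with GC content of 0.335, 0.249 and 0.212, and with exon length of 0.0724, 0.375 and 0.395, in the astrocyte, heterozygous and homozygous lines (18310, 19259 and 19662 genes, which are not independent replicates). The fit was therefore repeated with smooth trends in both removed within each library. This moved the median of all genes to -0.24 and -0.26 in the heterozygous and homozygous lines and left it at -0.0047 in the astrocyte line, so values are given here relative to that median. The Shank genes stayed above it and passed: Shank2 at 1.06, 1.86 and 1.58, Shank3 at 0.64, 1.31 and 1.13, and Shank1 at 0.36, 0.90 and 0.73. Gphn stayed below it at -0.57, -0.59 and -0.60. The direction of Dlgap1 turned in all 3 lines, to -0.38, -0.13 and -0.18, and that of Dlg4 did so too (-0.19, -0.26 and -0.29). Camk2a, Homer1 and Nlgn1 lay between -0.42 and -0.09 in the 3 lines. They were below 0 in the astrocyte line in both fits, and turned direction in the microglial lines. Scaling by library totals instead moved the median of all genes to 0.18 and 0.23 in the heterozygous and homozygous lines. Homer1 (0.23) and Nlgn1 (0.22) then passed in the heterozygous line, and Camk2a (0.42) and Nlgn1 (0.28) in the homozygous line, which relative to that median is 0.05, 0.04, 0.19 and 0.05.

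**Figure D3:**
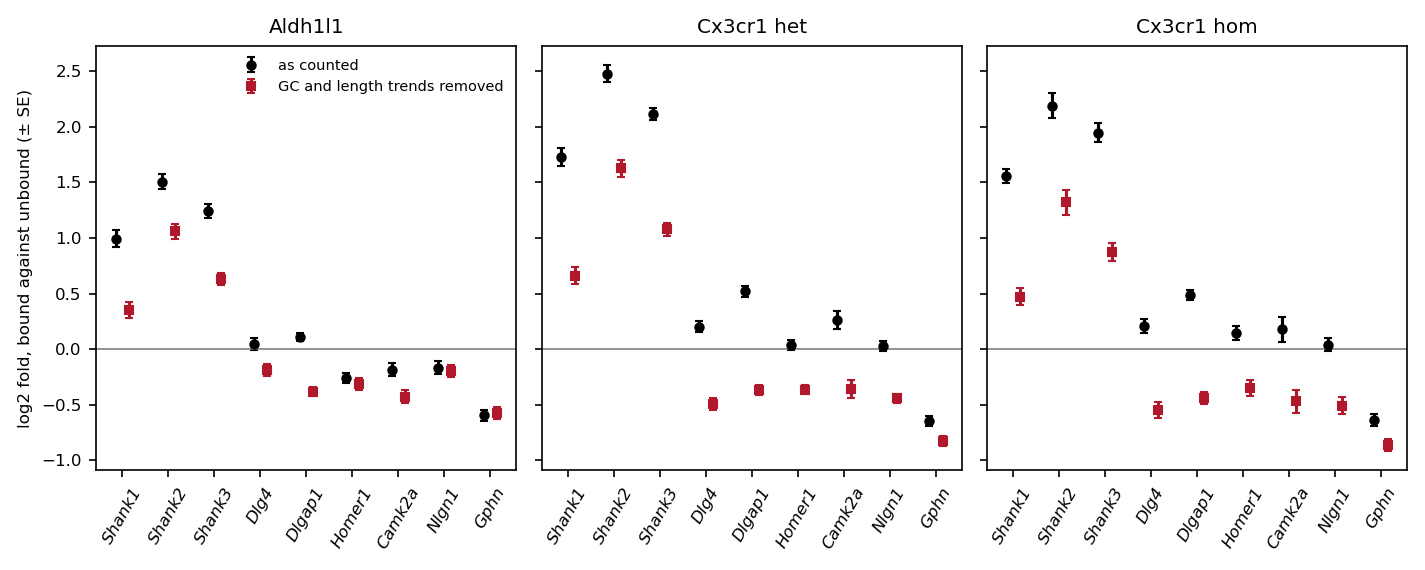
Log2 fold change of bound against unbound RNA (vertical axis, ± SE) for the 9 genes in the 3 lines, as counted (black circles) and after removal of trends with GC content and length (red squares). The Shank genes keep values above 0 and Gphn below 0 in both, while Dlg4 and Dlgap1 cross 0 in every line. Values are drawn as fitted, not relative to the median of all genes. With the trends removed that median was -0.0047, -0.24 and -0.26 in the astrocyte, heterozygous and homozygous lines.

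The ratio was larger in the heterozygous microglial than in the astrocyte line for 6 of 9 members. The difference of the log2 fold changes was 0.90 ± 0.10 for Shank2, 0.80 ± 0.08 for Shank3 and 0.66 ± 0.11 for Shank1 (edgeR adjusted p = 7.5e-10, 3.3e-10 and 1.1e-05). It was 0.38 ± 0.10 for Camk2a, 0.33 ± 0.06 for Dlgap1 and 0.22 ± 0.06 for Homer1 (adjusted p = 0.0021, 7.3e-06 and 0.00254). Dlg4, Nlgn1 and Gphn did not pass (0.08 ± 0.07, 0.12 ± 0.08 and -0.13 ± 0.07). Over all 21503 genes 41.8% passed, 17% higher and 24.7% lower, and the median was -0.14. Scaling by library totals moved that median to 0.15, and Dlg4 and Nlgn1 then passed as higher too. The fold change had a Spearman correlation with exon length of 0.375 in the heterozygous and 0.0724 in the astrocyte line. The difference between lines was not fitted with GC and length trends removed, so their part was not tested. The lines come from separate tables, and the astrocyte line had no tamoxifen and shallower libraries, so line, treatment and table cannot be told apart. Between the homozygous and heterozygous lines no member's ratio passed, and no gene did out of 20676 with edgeR (712 at an unadjusted p under 0.05, of which 0 were members), DESeq2 or limma-voom. Shank2 had the largest value there, at -0.28 ± 0.14. The homozygous libraries are labelled polyA RNA and the heterozygous ones total RNA, so genotype, RNA selection and table cannot be told apart between those lines.

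A list of 36 further postsynaptic genes was read beside the members: excitatory scaffolds, the remaining Camk2 subunits, adhesion molecules and proteins of inhibitory synapses. In the heterozygous line 29 of 36 were higher and 2 lower in bound RNA, with a median of 0.56, beside 31.8% higher and 30.8% lower over all genes. In the homozygous line 27 were higher and 2 lower (median 0.53; all genes 31.6% and 30.4%), and in the astrocyte line 16 were higher and 9 lower (median 0.15; all genes 31.5% and 27.6%). These counts, and the values of single genes that follow, are from the fit that kept the trends with GC content and length. The list was not counted with those trends removed, so their part in the excess over all genes was not tested. Kalrn, a regulator of dendritic spines, had 1.31 ± 0.05, 1.90 ± 0.06 and 1.92 ± 0.09 in the astrocyte, heterozygous and homozygous lines. Iqsec2, an exchange factor for Arf GTPases, had 1.15 ± 0.06, 1.64 ± 0.07 and 1.57 ± 0.07. Sipa1l1, a scaffold with a Rap GTPase-activating domain, stood at 0.72 ± 0.06, 1.09 ± 0.05 and 1.07 ± 0.06 in the same order of lines. Begain, which binds Dlg4, stood at 0.73 ± 0.05, 0.84 ± 0.06 and 0.84 ± 0.09. Lrrtm2, an adhesion molecule that binds neurexins, was lower in all 3 lines (-0.69 ± 0.06, -0.37 ± 0.06 and -0.40 ± 0.06), as was Baiap2, an actin regulator of spines (-0.37 ± 0.06, -0.36 ± 0.06 and -0.41 ± 0.08). Camk2b, the beta subunit of the kinase, was lower in the astrocyte line (-0.39 ± 0.05). All of these passed in edgeR, and the largest adjusted p among them was 5.8e-05. Between the heterozygous and astrocyte lines the ratio differed for 22 of the 36 as higher and for 1 as lower in the heterozygous line, beside 17% and 24.7% of all genes. Dlg3, a relative of Dlg4 (0.64 ± 0.07), Cttnbp2, which binds cortactin (0.66 ± 0.07), and Grip1, which binds AMPA receptors (0.49 ± 0.05), were higher by this difference, and Tanc1 lower (-0.32 ± 0.10). The 16 neuron markers went the other way on balance, with 10, 7 and 7 lower and 3, 4 and 4 higher in the 3 lines and medians of -0.33, -0.19 and -0.19.

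The genes whose pattern was most like each member's were sought among 14206 named genes, by Pearson's r of log2 CPM centred within a line over the 56 libraries. Both fractions of a piece enter, so the libraries are not independent and r is a description. The centring kept the difference between fractions, so r in large part repeats the bound over unbound differences given above. Likeness within a fraction was not looked at. Closest to Shank2 were Kmt2c (r = 0.99) and Apc2 (0.99), to Shank3 Kmt2c (0.99) and Pde4dip (0.99), and to Shank1 Spen (0.98) and Ttbk1 (0.98). Among themselves the 3 Shank genes had r of 0.975 to 0.991, and each had -0.907 to -0.919 with Gphn. Dlgap1 was most like Ski (0.97) and Frmpd4 (0.97), and Gphn most like Psmc6 (0.96) and Cct2 (0.96). Likeness was looser for Homer1, with Cacnb4 (0.88), for Camk2a, with Shisa6 (0.85) and Slit3 (0.83), for Dlg4, with Phactr1 (0.84) and Soga3 (0.82), and for Nlgn1, with Opcml (0.79) and Nrg3 (0.77).

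Whisker deprivation was then compared with control in each line and fraction. In bound RNA of the heterozygous line, Shank1 read 978 (14L), 1228 (15L), 1177 (17L) and 1257 (17R) CPM in the deprived libraries. It read 1332 (14R), 1862 (15R), 1650.2 (21L) and 1748 (21R) CPM in the controls. All deprived libraries lay below all controls, and the log2 fold change was -0.50 ± 0.11, edgeR adjusted p = 0.0108. Shank2 read 1489, 1233, 1712 and 1770.2 CPM in the deprived and 2064, 2305, 2106 and 1871 CPM in the control libraries, in the same order of pieces. The groups again did not overlap (-0.42 ± 0.11, adjusted p = 0.0229). Shank3 read 134, 142, 140.5 and 161 CPM against 165, 181, 199.8 and 174 CPM, also without overlap (-0.31 ± 0.08, adjusted p = 0.0221).

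Dlg4 and Homer1 were lower as well. Dlg4 read 187, 189, 173 and 195 CPM in the deprived and 199, 241, 232 and 234 CPM in the control libraries (-0.28 ± 0.08, edgeR adjusted p = 0.0302). Homer1 read 141, 141, 158 and 151 CPM against 183, 164, 196 and 177 CPM (-0.28 ± 0.07, adjusted p = 0.0254). Both pairs of groups were separate by narrow margins, Dlg4 between 195 and 199 CPM and Homer1 between 158 and 164 CPM. Camk2a went the other way, with 369.7, 464, 329.9 and 418 CPM in the deprived and 235, 278, 289 and 305 CPM in the control libraries (0.52 ± 0.11, adjusted p = 0.00961). Nlgn1 (-0.25 ± 0.08, adjusted p = 0.0545), Dlgap1 (-0.17 ± 0.08, adjusted p = 0.195) and Gphn (0.13 ± 0.07, adjusted p = 0.281) did not pass with edgeR. Nlgn1 did pass with DESeq2 and limma-voom (adjusted p = 0.0215 and 0.0391). In this comparison 10.3% of 18001 genes passed, 5.52% higher and 4.76% lower, against 1 member higher and 5 lower of 9. Over all genes tested, 17% had deprived and control libraries that did not overlap, 8.4% with deprived above and 8.58% below.

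**Figure D4:**
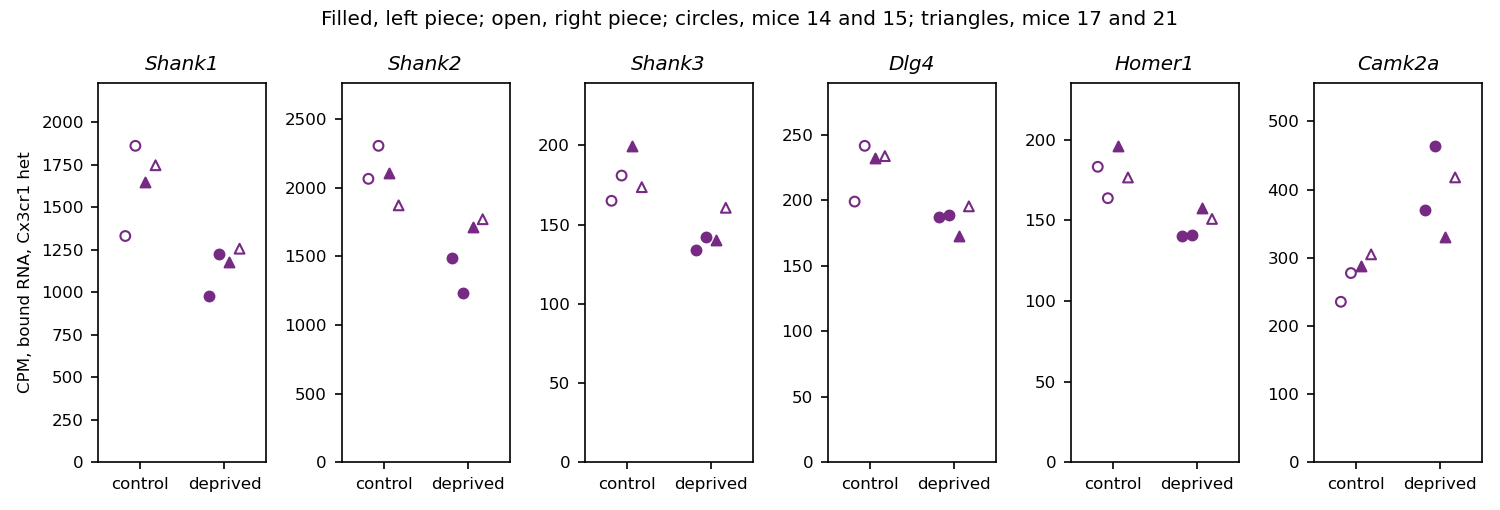
CPM (linear axes from 0) of the 6 genes that passed in bound RNA of the heterozygous line, in the 4 control and 4 deprived libraries, with filled symbols for left and open for right pieces, circles for mice 14 and 15 and triangles for mice 17 and 21. Control and deprived libraries do not overlap for these 6, which were drawn because they passed, and 17% of all genes tested separate in the same way; the left and right triangles, each pair from 1 mouse, fall within the same group.

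This comparison rests on few mice. Within mice 14, 15, 17 and 21, left minus right log2 CPM of bound Shank1 was -0.44, -0.60, -0.09 and -0.08, of Shank2 -0.47, -0.90, -0.05 and 0.17 and of Camk2a 0.65, 0.74, -0.34 and -0.08. For these 3 genes the differences were larger in mice 14 and 15, whose sides lie in different groups, than in mice 17 and 21, whose sides lie in the same group. For Dlg4 they were -0.09, -0.36, -0.18 and -0.01, so that mouse 17 differed more than mouse 14. Shank3 had -0.30, -0.35, -0.19 and 0.20 and Homer1 -0.38, -0.22, 0.06 and 0.15. Grouped by side letter, no member and no gene passed (Shank1 -0.29, adjusted p = 0.909; Camk2a 0.24, adjusted p = 0.909). With the mouse as a paired block, Shank1, Shank2 and Camk2a passed (-0.51, -0.67 and 0.71; adjusted p = 0.00738, 0.00546 and 0.00496), and Shank3, Dlg4 and Homer1 did not (adjusted p = 0.0912, 0.236 and 0.0907). Mice 17 and 21 hold both sides in the same group, so the effect in that fit rests on mice 14 and 15. In mice 14 and 15 alone no member passed, with Shank1 at -0.52 and Camk2a at 0.71. Shank1 and Camk2a kept their call in all 8 fits that left out 1 library. Shank2 lost it in 2, Shank3 in 4, Homer1 in 5 and Dlg4 in 7 of the 8, and the number of members called ran from 2, without deprived piece 14L or 15L, to 6. Without control piece 21L it was 3.

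Markers of other cell types moved with the same groups. For the counts that follow, 5.52% of all genes tested passed as higher and 4.76% as lower. Summed neuron markers in bound RNA were 5540 to 5961 CPM in the deprived and 6666 to 7163 CPM in the control libraries, without overlap. Summed microglia markers were 336 to 411 CPM in the deprived and 188 to 279 CPM in the control libraries, and 7 of 13 were higher and none lower. Of the 16 neuron markers, 4 were lower and 1 higher, with a median of -0.19, and 4 of 12 astrocyte markers were higher. Their part in the values of the members was not tested. Among the 36 other postsynaptic genes 2 were higher and 5 lower, beside 5.52% and 4.76% of all genes. Their median was -0.14, beside -0.28 for the members and 0.0086 for all genes. Lrrc4c, an adhesion molecule that binds netrin G1 (-0.45 ± 0.08), Begain (-0.42 ± 0.09) and Nlgn2, the neuroligin of inhibitory synapses (-0.32 ± 0.08), were lower, with edgeR adjusted p = 0.0042, 0.0139 and 0.0230. Camk2d, the delta subunit of the kinase (0.55 ± 0.13), and Tanc1, a scaffold that binds Dlg4 (0.35 ± 0.09), were higher (adjusted p = 0.0188 and 0.0287).

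In unbound RNA of the heterozygous line Camk2a alone passed among the members. It read 302, 386, 290.0 and 332 CPM in the deprived and 217, 227, 278 and 202 CPM in the control libraries (0.55 ± 0.10, edgeR adjusted p = 0.00922). The lowest deprived library lay above the highest control. In this comparison 3.75% of 18073 genes passed, 2.7% higher and 1.05% lower. Left minus right log2 CPM of unbound Camk2a was 0.48, 0.76, -0.19 and 0.46 in mice 14, 15, 17 and 21. Both sides of mouse 21 are controls, and its difference was close to that of mouse 14. With the mouse as a paired block, where the effect rests on mice 14 and 15, Camk2a did not pass (0.67, edgeR adjusted p = 0.0565). Nor did it pass by side letter (0.39, adjusted p = 0.864). It passed in mice 14 and 15 alone (0.68, adjusted p = 0.039). Shank1, Shank2 and Shank3 had -0.14 ± 0.10, -0.22 ± 0.09 and -0.08 ± 0.08 there. Dlg4 (-0.11 ± 0.06) and Homer1 (-0.18 ± 0.06) did not pass either. These values are from edgeR; with DESeq2 Homer1 passed (adjusted p = 0.0436). The deprived libraries of Shank2, Homer1 and Gphn lay below all controls, as did those of 8.22% of all genes tested, beside 4.83% above. Homer1 read 149, 144, 152 and 142 CPM against 164, 162, 180.4 and 179 CPM. Of the 36 other postsynaptic genes, 1 was higher and 3 were lower with edgeR, beside 2.7% and 1.05% of all genes. Camk2d was higher (0.58 ± 0.11). Lrrc4c (-0.27 ± 0.06), Cnksr2, a scaffold of the density (-0.33 ± 0.08), and Dlgap4, a relative of Dlgap1 (-0.24 ± 0.06), were lower. The difference of the deprivation effect between fractions passed for no member (largest difference -0.32 ± 0.16, Shank1; edgeR adjusted p = 0.513; 0 of all genes passed, 1904 at an unadjusted p under 0.05, 170 with DESeq2 and 11 with limma-voom).

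In the astrocyte line no member passed in either fraction, and no gene did with edgeR (0% of 17685 in bound and of 16846 in unbound RNA; 1067 and 1043 at an unadjusted p under 0.05; 7 and 0 with DESeq2, 0 and 0 with limma-voom). Camk2a had the largest value. It read 383, 363, 363, 398 and 447 CPM in the deprived and 336, 314, 357, 270.1 and 343 CPM in the control libraries of bound RNA, which did not overlap (0.26 ± 0.08, edgeR adjusted p = 0.708); 1.18% of all genes tested separated too. In unbound RNA it was 0.22 ± 0.07, adjusted p = 0.678, and passed there without the filter on low counts (0.23, adjusted p = 0.00144). The Shank genes had 0.21 ± 0.12, 0.08 ± 0.11 and 0.15 ± 0.09 in bound RNA, all with overlapping groups.

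In the homozygous line no member passed either, beside 0.00546% of 18324 genes in bound and 0.038% of 18421 in unbound RNA. Deprived and control groups overlapped for all 9 members in both fractions. Shank2 in bound RNA read 2029 (7L), 1669.5 (12L), 1825 (18L), 1586 (19L) and 1465 (22L) CPM in the deprived and 1413 (7R), 1270.3 (12R), 673 (18R), 1570.2 (19R) and 1486 (22R) CPM in the control libraries. The log2 fold change of 0.41 ± 0.18, edgeR adjusted p = 1, became 0.25 without control piece 18R and 0.11 without mice 7 and 18. Shank1 and Shank3 had 0.02 ± 0.11 and 0.08 ± 0.14. Camk2a was -0.07 ± 0.16 in bound and -0.02 ± 0.13 in unbound RNA, with deprived piece 18L lowest in both, at 201 and 195 CPM.

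**Figure D5:**
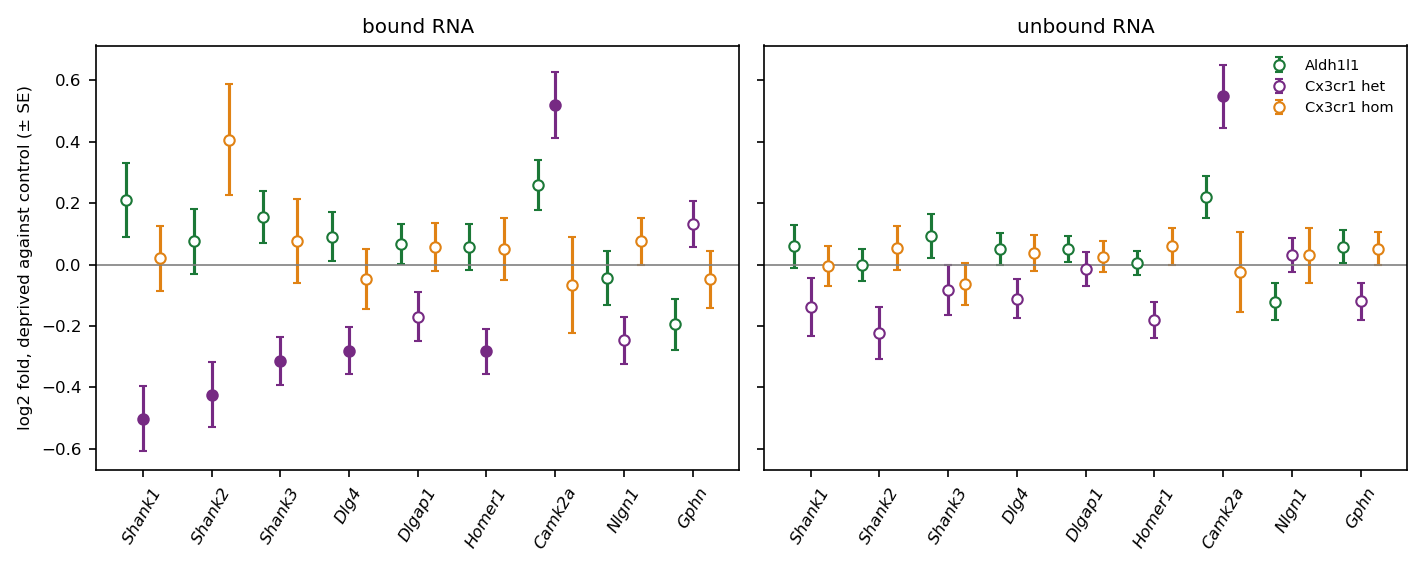
Log2 fold change of deprived against control cortex (vertical axis, ± SE) for the 9 genes in bound (left) and unbound (right) RNA of the astrocyte, heterozygous and homozygous lines. Filled points passed at an adjusted p under 0.05 (edgeR). They are 6 genes in bound and Camk2a in unbound RNA, all in the heterozygous line. Over all genes tested, 10.3% passed in bound and 3.75% in unbound RNA of that line, and at most 0.038% in the other lines.

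A call in the heterozygous line and none in the homozygous line does not show a difference, so the difference itself was tested. The deprivation effect in bound RNA, homozygous minus heterozygous, was 0.83 ± 0.24, edgeR adjusted p = 0.0955, for Shank2, 0.52 ± 0.16, adjusted p = 0.112, for Shank1 and -0.59 ± 0.22, adjusted p = 0.165, for Camk2a. No member passed, beside 100 of 19601 genes (0.51%, with 0.194% higher and 0.316% lower). An unadjusted p under 0.05 was found for 6 members, beside 3380 of the 19601 genes, so such a value was common among genes. With DESeq2, Shank1 and Shank2 passed (adjusted p = 0.0286 and 0.0166). Without the filter on low counts Shank2 passed (adjusted p = 0.00739). In unbound RNA no member passed, beside 345 of 19278 genes (1.79%; 0.508% higher and 1.28% lower), and Camk2a had -0.57 ± 0.19, adjusted p = 0.12, which passed without that filter (adjusted p = 0.0103). Of the 36 other postsynaptic genes, Camk2d was the 1 that passed in each fraction (-0.94 ± 0.17 and -0.94 ± 0.15, edgeR adjusted p = 0.0263 and 0.0071). With the heterozygous pieces grouped by side letter, 0 genes passed as higher and 2 as lower in each fraction, over all genes. As for the ratio, genotype, RNA selection and table cannot be told apart in this test.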

How the data were processed

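The authors deposited 1 table of unnormalised counts for each line, with Ensembl gene rows, made with HISAT2 2.2.0 and featureCounts 2.0.0 after Trim Galore 0.6.4 and cutadapt 2.9, per the submitters' processing notes (builds GRCm38 and mm10). The strand used in counting is not given in the sources used here. By their labels the homozygous libraries are polyA RNA and those of the other lines total RNA. Libraries were grouped by title.

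CPM used TMM library sizes per line, and log2 CPM a prior count of 2. Genes passing filterByExpr were tested with edgeR 4.0.16 (quasi-likelihood F test, two-sided) in R 4.3.3, with Benjamini-Hochberg adjustment over all genes tested and a threshold of 0.05. Errors of fold changes are standard errors. Deprived and control libraries were fitted alone within a line and fraction. Fractions, and the effect between fractions, used all 4 groups of a line. Lines were compared over genes present in both tables. Alternatives were DESeq2 1.42.0 size factors and Wald test, limma-voom (limma 3.58.1) with sample weights, no filter, sex or the replicate as a term, library totals, removal of GC and length trends (splines with 5 degrees of freedom over genes with mean log2 CPM above 1), other groupings of the heterozygous pieces, and leaving out each library or mice 7 and 18. The test was checked on simulated counts.

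The number of a homozygous library names the mouse, as for mice 14 and 15 of the heterozygous line, so these pair by animal. Same-mouse libraries had correlations of 0.0802 to 0.328 over genes after removal of group means. Astrocyte numbers name no animal and had -0.155 to 0.137.

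Named genes were all 9 members, up to 3 per direction by smallest p of 36 other postsynaptic genes, and for each member the 2 genes of most similar pattern, of which 1 is not reported here. The members and lists were chosen with earlier results of these data known.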

Additional observations from a re-analysis of the deposited data

Results flagged for a closer look

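Each group of 4 or 5 libraries was checked for a library far from the others, by its gap to the nearest one over the group's range. Of 108 groups, 10 held such a library, and chance gives about 1 in 20. In bound RNA of the astrocyte line, deprived replicate 5 was highest for Shank3 (152 CPM, next 120 CPM) and Homer1 (189 CPM, next 164 CPM). In unbound RNA of the heterozygous line, Shank3 was highest in deprived piece 15L (37.3 CPM) and control piece 21L (45.6 CPM, next 36.9 CPM). In the homozygous line, bound Shank2 was lowest in control piece 18R (673 CPM, next 1270 CPM). Mouse 7 had the highest deprived Dlg4 in bound (247 CPM) and unbound RNA (205 CPM) and the highest unbound Dlgap1 (270.1 CPM). Deprived piece 18L had the lowest bound Camk2a (201 CPM, next 339 CPM) and Nlgn1 (106 CPM, next 121 CPM).

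The bound over unbound log2 fold change was larger in the heterozygous than in the astrocyte line, by a test of the difference itself, for Shank2 (0.90), Shank3 (0.80), Shank1 (0.66), Camk2a (0.38), Dlgap1 (0.33) and Homer1 (0.22). That test was not repeated with GC and length trends removed.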

How the results depend on the processing

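Of 3465 values of single members under an alternative, 3380 kept their direction and side of the threshold, counting 133 that changed sign without passing in either fit; 50 lost and 23 gained a call, and 12 turned direction. These all came with GC and length trends removed: Dlg4 -0.19, Dlgap1 -0.38 in the astrocyte, Dlg4 -0.49, Dlgap1 -0.37, Homer1 -0.37, Camk2a -0.36, Nlgn1 -0.44 in the heterozygous and Dlg4 -0.54, Dlgap1 -0.44, Homer1 -0.35, Camk2a -0.47, Nlgn1 -0.51 in the homozygous line; the fit's own median shift is given above.

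With the mouse or number as a paired block, members called after deprivation in the heterozygous line went from 6 to 3 (bound) and from 1 to 0 (unbound), and genes from 1850 to 1092 and from 678 to 226. In that line the effect under the block rests on mice 14 and 15. In the homozygous line 2 and 3 genes passed under the block, in place of 1 and 7, and for the effect between fractions 243 (heterozygous) and 1 (astrocyte) in place of 0. In bound against unbound RNA the block gave 11274, 12873 and 13313 genes, and in the homozygous line Camk2a passed (0.17, adjusted p = 0.0056); no other member's call changed. By side letter 0 members and 0 genes passed in either heterozygous fraction, and 2 and 2 genes in the difference between genotypes. Without pieces 17R and 21L, 741 and 294 genes passed, and in mice 14 and 15 alone 119 and 194, with 0 members in bound RNA. Leaving out mice 7 and 18 gave 0 and 1 genes in the homozygous line, and 11 and 77 in the genotype difference with 17R and 21L out too.

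Without the low-count filter, genes called (bound, unbound) were 85 and 143 in the astrocyte and 28 and 52 in the homozygous line, 1459 in heterozygous unbound RNA, 15, 118 and 1 between fractions, 576 and 872 between genotypes, and 1 for the ratio between genotypes. Members called were then 1 in astrocyte unbound (Camk2a), 2 in heterozygous unbound RNA (Shank2 added), and 1 in each genotype difference (Shank2, Camk2a). DESeq2 gave 7 in astrocyte bound, 1176 in heterozygous unbound, 11 and 35 in homozygous, 170 between heterozygous fractions, 734 and 841 between genotypes, with 2 members in each of heterozygous unbound RNA (Homer1 added) and the bound genotype difference. limma-voom gave 1 in homozygous unbound RNA, 11 between heterozygous fractions and 160 in the bound genotype difference. Sex as a term gave 2, and all 4 groups in the fit 1, in homozygous unbound RNA.

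Without 1 library, genes called ranged from 938 to 2089 (heterozygous bound), 247 to 1141 (unbound), 0 to 2 and 0 to 22 (homozygous), 0 to 60 (between heterozygous fractions), 0 to 441 and 69 to 732 (between genotypes, bound and unbound) and 0 to 1 (ratio between genotypes), and members called in heterozygous bound RNA from 2 to 6. In the ratio between lines, Dlg4 and Nlgn1 passed only without astrocyte bound deprived replicate 5 (edgeR adjusted p = 0.0147 and 0.0124). That made 8 members called without it and 6 with it. The median of all genes in that fit is not given here, so a shift common to many genes was not looked at. The causes were not tested.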
